A study of Drosophila melanogaster with 15 samples.

Results

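The muscle genes described here, 8 of the 11848 FlyBase genes with an isoform in any of 3 long-read assemblies, were taken by FlyBase gene ID and are followed through their promoters, exon choices and 3′ ends. Parts of the thick filament are encoded by Mlc1 (FBgn0002772), Mlc2 (FBgn0002773), Prm (FBgn0003149) and Mf (FBgn0038294). Parts of the Z-disc are encoded by Actn (FBgn0000667), Zasp66 (FBgn0035917) and Zasp52 (FBgn0265991). Mef2 (FBgn0011656) encodes the transcription factor that switches on muscle genes. All samples came from untreated w1118 Drosophila melanogaster, sequenced as full-length polyadenylated cDNA on Nanopore devices. For heads of 3-day-old flies there were 6 libraries, of which 4 had been enriched for cDNA longer than 3 kb and 2 had not. Embryos gave 6 size-selected libraries, 3 aged 14 to 16 h and 3 aged 18 to 20 h after egg laying, with 50 embryos each. Ovaries of 3-day-old virgin females gave 3 size-selected libraries of 20 ovaries each. The study asked whether the site of initiation shapes splicing and 3′ end choice. The deposited files hold 1 assembly for each tissue with replicates and both embryo ages pooled, and list isoforms with positions in the dm6 build but no read numbers. The files thus give no depth, which by the study's account was greater for heads than for embryos and ovaries. An isoform counts the same whether rare or abundant, and no spread between replicates and no test between tissues can be given.

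In the sarcomere, myosin thick filaments slide along actin thin filaments that are anchored at the Z-disc. Essential and regulatory light chains stiffen and tune the myosin neck, paramyosin and its shorter relative miniparamyosin lie in the core of invertebrate thick filaments, and myofilin, the product of Mf, is a further thick-filament protein. At the Z-disc, alpha-actinin cross-links actin filaments of opposite polarity, and Zasp proteins, which carry PDZ and in part LIM domains, bind alpha-actinin and hold the disc together. Several of these genes are known to make different proteins in fibrillar flight muscle and tubular muscle by using other promoters and exons. A transcription start site is written TSS and a polyadenylation site PAS below, numbered within each gene from 5′ to 3′.

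All 8 genes had an isoform in heads, in embryos and in ovaries, where 38.3% of all 11848 genes had one in each of the 3 assemblies. The genes held 420 head, 101 embryonic and 25 ovarian isoforms, which is 0.610%, 0.542% and 0.195% of the FlyBase-assigned isoforms of those assemblies. Every member had more isoforms in heads than in embryos, against 75.3% of the genes present in both. Of the 8 genes, 7 also had more in embryos than in ovaries, and Mlc1 had 1 in each. That share was 26.4% over all genes present in both. Their median isoform number was 53.5 in heads, 10 in embryos and 2.5 in ovaries, where the median over all genes was 2, 1 and 1. Mf led in heads with 142 isoforms, and Mef2 led in embryos with 33 and in ovaries with 8. In such bulk tissue fewer muscle cells and less RNA per muscle cell cannot be told apart. The counts also do not show which cells the isoforms came from. The part in these counts of the deeper sequencing of heads was not tested. Size selection differed too, as 2 of 6 head libraries had none while all embryonic and ovarian libraries had it. Its part was not tested either. Median isoform length in heads ran from 1090 nt (Mlc1) to 4444.5 nt (Mef2), on both sides of the 3 kb limit.

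**Figure D1:**
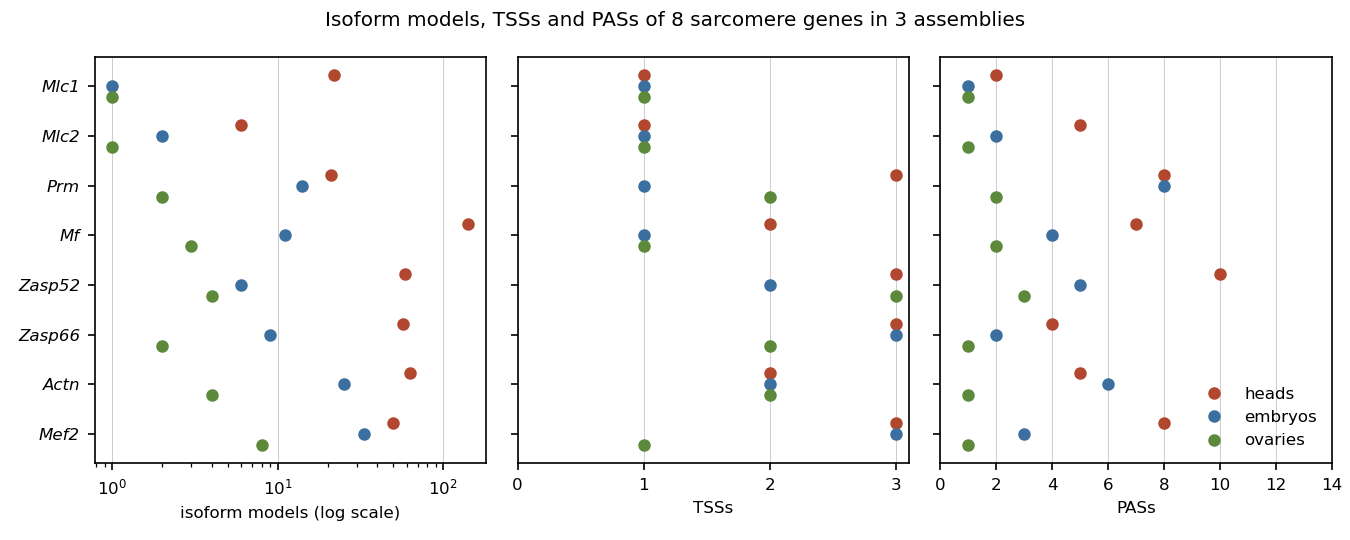
Isoform models (log scale), TSSs and PASs of the 8 genes, 1 point per gene and assembly. Heads sit to the right of embryos in isoforms for every gene, while embryos equal heads in PASs for Prm (8) and exceed them for Actn (5 in heads, 6 in embryos).

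Marker genes were used to look at the labels. Of 4 neuronal marker genes (elav, nSyb, Syt1, brp) heads held all 4, embryos all 4 and ovaries 0, and of 3 photoreceptor genes heads held 3, embryos 1 and ovaries 0. The follicle cell and eggshell genes Vm26Aa, Vm34Ca, dec and Cp36 were all present in ovaries, with 1 of them in heads and 0 in embryos. Of the germline markers, osk had 2 head, 0 embryonic and 5 ovarian isoforms and otu had 0, 1 and 6, while vas was listed with no isoform in any assembly and nos was not analysed here. Whether vas carries another gene ID in these files was not tested. Muscle genes beside the members (Mhc, up, wupA, Tm2) were held by all 3 assemblies, with 19 to 255 isoforms per gene in heads, 4 to 118 in embryos and 1 or 2 in ovaries. The testis genes dj, Mst87F and ProtA had 5, 2 and 2 isoforms in heads and none in embryos or ovaries. The epidermal genes verm, serp and grh were found in heads (8 to 23 isoforms) and embryos (3 to 13) but not in ovaries.

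The number of promoters differed between genes. More than 1 TSS was used by 6 of the 8 in heads, by 4 in embryos and by 4 in ovaries, where the share over all genes was 17.4%, 12.8% and 8.42%. Across the assemblies the 8 genes had 18 TSSs, and each lay at a single position. All but 1 of the 18 were within 1 nt of an annotated 5′ end, and the files hold no small shifts of initiation. By the study's account its assembly kept a read only if a promoter database supported the 5′ end. The positions are thus no independent measure of where transcription starts. More than 1 PAS was used by all 8 genes in heads, by 7 in embryos and by 3 in ovaries, against 37.4%, 26.1% and 16.9% of all genes. The 61 PASs of the 8 genes comprised 98 distinct 3′ ends, of which 29 had the polyadenylation signal AATAAA in the last 50 nt. By assembly this was 26 of 80 ends in heads, 17 of 37 in embryos and 12 of 13 in ovaries, against 33.5%, 40.2% and 42.7% of the distinct ends of all genes. Of the 98 ends, 7 were followed by a genomic stretch of 12 or more A in 20 nt, from which an oligo(dT) primer can start. By the position of its furthest end, each PAS was placed in the annotation. In this way 24 PASs lay in a 3′ UTR after the last stop codon of the gene and held 337 head, 78 embryonic and 22 ovarian isoforms. A further 19 PASs lay in annotated introns, with 26, 10 and 1 isoforms in those tissues.

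**Figure D2:**
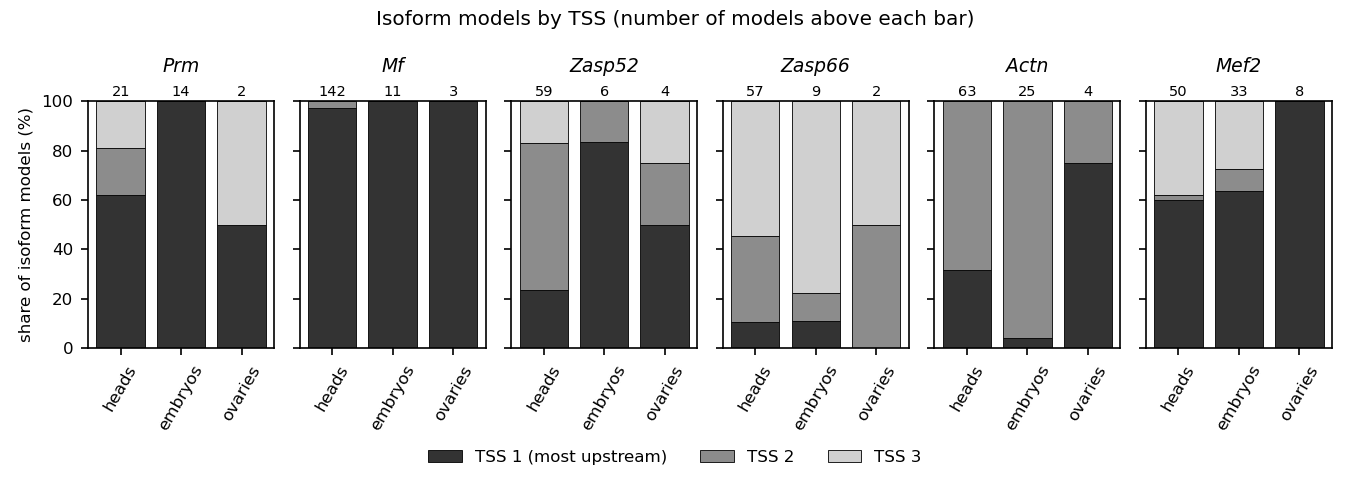
Share of isoform models that start at each TSS of the 6 genes with several TSSs, in heads, embryos and ovaries, with the number of models above each bar. In embryos Actn is almost wholly TSS 2 (24 of 25 models), and in ovaries Mef2 is wholly TSS 1 (8 of 8).

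Mlc1, the essential light chain, lies on the minus strand of chromosome 3R (27657078 to 27660177) and had 22 head, 1 embryonic and 1 ovarian isoform, all from 1 TSS. Its 2 annotated proteins have 155 residues each and share 144 of these positions, and they differ in the C-terminal end, because a 47-nt exon brings its own stop codon when it is kept. The end of the reading frame is shown for both forms, with the stop codon in capitals. The kept exon ends at chr3R:27658070-27658113, and without it the frame ends in the last exon at chr3R:27657912-27657955.
Mlc1 with the 47-nt exon: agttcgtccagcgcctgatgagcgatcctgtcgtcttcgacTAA
Mlc1 without it: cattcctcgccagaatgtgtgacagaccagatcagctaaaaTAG

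The single embryonic isoform and the single ovarian isoform of Mlc1 both kept the 47-nt exon and predicted the protein that ends in it. In heads the exon was kept by 9 isoforms and skipped by 6, yet the protein that ends in it was predicted from none of the 22 head isoforms, whereas 3 predicted the form without it. A second exon of Mlc1 also varied among the head isoforms. A 28-nt exon close to the start codon was kept by 9 head isoforms and skipped by 8, and was kept in the embryonic and the ovarian isoform. The intron by which the 8 skip it (27658922 to 27660109) is not annotated. Whether it reflects splicing or the alignment of a short exon was not tested. Of the 13 head isoforms in which both exons were scored, 1 kept both, 4 kept the 28-nt exon alone, 6 kept the 47-nt exon alone and 2 kept neither. A length of 28 nt is not a multiple of 3, and 8 head isoforms predicted a product of 21 residues. Of the 9 head isoforms with the 47-nt exon, 8 did not hold the 28-nt exon as an exact exon, and 6 of them skipped it. The absence of the protein that ends in the 47-nt exon from heads thus depends largely on how the 28-nt exon was read. An intron was retained by 11 of the 22 head isoforms. The exon, which lies close to the start codon, is printed in full.
Mlc1 28-nt exon, chr3R:27659929-27659956: gctgatgttccaaagcgtgaagttgaaa

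The 3′ ends of Mlc1 formed 2 PASs. The proximal one (3R, 27657936 to 27657564) held 16 head isoforms and no embryonic or ovarian one. The distal one (27657354 to 27657244) held 6 head isoforms and the single isoforms of embryos and ovaries. In heads the most frequent single ends were 27657564 and 27657667, with 7 isoforms each. The first of these had no AATAAA and was followed by 12 A in 20 nt of the genome. The second had AATAAA 35 nt upstream and was followed by 9 A. One further head isoform that shared an intron with Mlc1 carried the gene ID of the neighbour tau and was not counted.

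Mlc2, the regulatory light chain of muscle myosin, lies on 3R (30171438 to 30174551, minus strand). It was the simplest member, with 1 TSS, 6 head, 2 embryonic and 1 ovarian isoform, and no alternative exon. The single annotated protein of 222 residues was predicted from 4 of the 6 head isoforms, both embryonic isoforms and the ovarian one. What varied was the 3′ UTR. Among isoforms that encode this protein it measured 109 to 1551 nt in heads, 1081 and 1551 nt in embryos and 109 nt in ovaries. The head isoforms ended at 5 PASs, the embryonic ones at PAS 4 and PAS 5, and the ovarian one at PAS 2. The windows around the polyadenylation signals of the shortest complete and of the longest form are shown, with AATAAA in capitals. The signals lie 15 nt (PAS 2) and 18 nt (PAS 5) before the end of the transcript. The end of PAS 5 was also followed by 14 A in 20 nt of the genome.
Mlc2 PAS 2, chr3R:30172882-30172911: aatcagtaatAATAAAcgtaattaaaagaa
Mlc2 PAS 5, chr3R:30171443-30171472: gaagtcttggAATAAAgcaaaagagagtcg

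Prm lies on the minus strand of 3L (8732858 to 8745310) and had 21 head, 14 embryonic and 2 ovarian isoforms. From the far promoter, TSS 1 at 8745310, transcripts encode paramyosin, a coiled-coil rod protein of 879 residues in the annotation. The internal TSS 2 lies 6403 nt downstream and opens the annotated transcripts of miniparamyosin, which has a first part of its own and shares the last exons of paramyosin. TSS 1 started 13 head, 14 embryonic and 1 ovarian isoform. TSS 2 started 4 head isoforms and no embryonic or ovarian one, so that the miniparamyosin promoter was seen in heads alone. TSS 3, 7766 nt from TSS 1, held 4 isoforms in heads and 1 in ovaries. It was the 1 TSS of the 18 away from an annotated 5′ end, by 1363 nt, and its isoforms contained no annotated start codon. The 50 nt around each start are printed below, from 40 nt before it, with the first transcribed base in capitals and, in TSS 3, the whole of the initiator-like word TCAGT, whose A is that base.
Prm TSS 1, chr3L:8745301-8745350: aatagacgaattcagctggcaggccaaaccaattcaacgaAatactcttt
Prm TSS 2, chr3L:8738898-8738947: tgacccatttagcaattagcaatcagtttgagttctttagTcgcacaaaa
Prm TSS 3, chr3L:8737535-8737584: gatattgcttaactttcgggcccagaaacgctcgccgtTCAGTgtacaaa

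The 3′ ends of Prm differed between promoters. Of the 4 head isoforms from TSS 2, 3 ended at PAS 5 and 1 at PAS 4, in an annotated coding exon, all upstream of the last exons shared with paramyosin. PAS 5 spans 3 ends. Those of the TSS 2 isoforms were 8736702 and 8736593, inside the annotated last exon of the short product and at its edge, and the furthest (8736444), 148 nt into the intron beyond, belonged to an isoform from TSS 1. Of these isoforms 3 predicted the annotated short product of 307 residues, and the annotated miniparamyosin that reaches the shared last exons was predicted from no isoform. By contrast, all 5 isoforms from TSS 3 ended at PAS 9, 10 or 11 in the common 3′ UTR. TSS 3 lies downstream of the start codon of the short product (8737850). The annotated intron that leads into the last exons (8734856 to 8737020) was spliced by 2 head isoforms. These were not from TSS 2, whose isoforms end before the far edge of that intron. From TSS 1, PAS 11 was the most frequent end, with 6 of 13 isoforms in heads, 5 of 14 in embryos and 1 of 1 in ovaries. PAS 1 to PAS 3, in introns of the 5′ part of the gene, held 1 isoform of TSS 1 in heads and 4 in embryos.
Prm PAS 9, chr3L:8733294-8733320: ctaaaaacaaAATAAAaacaaaccaac
Prm PAS 11, chr3L:8732879-8732908: atcttgcAATAAAaacgaaattctattcat

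The paramyosin of 879 residues was predicted from 4 head, 3 embryonic and 1 ovarian isoform. A 108-nt exon of the untranslated leader of miniparamyosin (8738640 to 8738747) was kept by 3 head isoforms, all from TSS 2, and skipped by all 10 scored head isoforms and all 9 scored embryonic isoforms of TSS 1. Retained introns were counted in each assembly. An intron spliced in another isoform of the same assembly was retained by 11 of 21 isoforms in heads, 7 of 14 in embryos and 0 of 2 in ovaries. The 631-nt intron after the first exon was retained by 4 embryonic isoforms, which predicted a product of 65 residues.

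Mf, on the minus strand of 3R (15170625 to 15181510), was the most diverse member. It had 142 head, 11 embryonic and 3 ovarian isoforms, which placed it at rank 14 of 11280 genes by isoforms in heads. Nearly all began at TSS 1 (138 of 142 in heads, 11 of 11 in embryos and 3 of 3 in ovaries), and the other 4 head isoforms began 890 nt further downstream. An intron chain is the set of introns of an isoform, and Mf had 75 in heads, of which 10 were also among the 11 of embryos and 3 were all those of ovaries. Heads predicted 43 different proteins (10 annotated), embryos 9 (7 annotated) and ovaries 3 (3 annotated).

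Several exons of Mf had alternative edges. An exon whose upstream edge can be set at 3 acceptors was held in its 70-nt form by 81 head, 8 embryonic and 3 ovarian isoforms. Its 64-nt form was held by 24 head isoforms and its 49-nt form by 12, and neither by an embryonic or ovarian one. The shorter forms lack 6 and 21 nt and keep the frame. The exon (chr3R:15176364-15176433) is shown with the 21 nt that the shortest form leaves out in capitals.
Mf 70-nt exon: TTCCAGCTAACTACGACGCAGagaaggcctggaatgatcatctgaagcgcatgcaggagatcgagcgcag

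Downstream, a coding exon of 207 nt (15174137 to 15174343) had a longer form of 363 nt. The short form was held by 64 head, 3 embryonic and 2 ovarian isoforms, and the long form by 23, 2 and 0. The next exon was 231 nt long in 45 head isoforms, 4 embryonic and 1 ovarian isoform, and began further upstream, with 464 nt and a stop codon inside, in 29, 1 and 1. A 171-nt exon before the last one (15171936 to 15172106) holds a stop codon of its own. It was kept by 36 isoforms in heads and skipped by 50, kept by 2 and skipped by 4 in embryos, and kept by 0 and skipped by 2 in ovaries. Keeping or skipping it gave the annotated pairs of 365 and 364 residues and of 313 and 312 residues. In heads these had 4, 5, 4 and 6 isoforms, in embryos 1 of each, and in ovaries the last one alone, with 1.

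Of the 7 PASs of Mf, the distal PAS 7 held 42 head, 6 embryonic and 2 ovarian isoforms. PAS 6, a spread of 9 ends just upstream (15171314 to 15170798), held 63 in heads, 2 in embryos and 0 in ovaries. PAS 1, in the middle of the gene, held 22 head isoforms and no other. Choice of the 171-nt exon was similar before both distal sites in heads, with 23 kept and 30 skipped before PAS 6 and 13 kept and 20 skipped before PAS 7. The signals of the most frequent end with AATAAA at each site are shown. Only 3 of the 9 ends of PAS 6 had AATAAA. The end shown (15170948) held 18 head isoforms and 1 embryonic one. The most frequent end of PAS 6 (15171082) had no AATAAA and held 30 and 1. None of the 5 ends of PAS 1 had AATAAA, and 1 of them (15175956, 9 head isoforms) was followed by 14 A in 20 nt.
Mf PAS 6, chr3R:15170948-15170968: ataataaaacAATAAAatcaa
Mf PAS 7, chr3R:15170626-15170655: aataataataAATAAAaaacttctaaaacc

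Isoforms of Mf that retain an intron numbered 53 of 142 in heads, 5 of 11 in embryos and 0 of 3 in ovaries. In heads the 493-nt intron after the 231-nt exon (15172107 to 15172599) was spliced by 34 isoforms and retained by 19. The 70-nt intron at 15176294 to 15176363 was spliced by 122 head isoforms and retained by 10, and spliced by 8 embryonic isoforms and retained by 3. Isoforms of Gyc88E, on the opposite strand, overlapped the gene (11 in heads and 3 in embryos). The MEF2 consensus occurred at TSS 2 of Mf, beginning 178 nt upstream of the start, with the match in capitals.
Mf TSS 2 upstream, chr3R:15179509-15179538: cgaaatatatTTATTTTTAGtgagattgat

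Actn, the gene of alpha-actinin, lies on the minus strand of the X chromosome (2023822 to 2042311). It had 63 head, 25 embryonic and 4 ovarian isoforms, from 2 promoters 5845 nt apart that share a start codon. The upstream TSS 1 started 20 head, 1 embryonic and 3 ovarian isoforms. TSS 2 started 43 in heads, 24 in embryos and 1 in ovaries. Between constant exons lie alternative coding exons, printed here because the tissues differed in them. Exon A (chrX:2029841-2029926) can be extended by 66 nt (chrX:2029775-2029926), which are in capitals. Exon B (chrX:2028665-2028750) has the same 86 nt length as A and is identical at 55 of the 86 positions, with the other 31 in capitals.
Actn exon A: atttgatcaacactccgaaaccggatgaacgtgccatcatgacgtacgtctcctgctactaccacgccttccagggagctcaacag
Actn exon A long: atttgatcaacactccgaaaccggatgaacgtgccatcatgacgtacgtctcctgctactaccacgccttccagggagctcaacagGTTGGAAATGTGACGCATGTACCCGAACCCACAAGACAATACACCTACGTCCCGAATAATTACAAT
Actn exon B: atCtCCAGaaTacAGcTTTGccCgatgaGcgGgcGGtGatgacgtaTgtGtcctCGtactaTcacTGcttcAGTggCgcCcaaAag

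The proteins with A and with B have 895 residues each and are identical at 887, and the long form of A adds 22 residues to give 917. In heads 22 isoforms held A alone, 8 the long A alone, 16 B alone, 3 held B with a form of A, and 14 held none of these exact exons. In embryos 3 held A alone, 9 the long A alone, 4 B alone, 1 the long A with B, and 8 none. In ovaries all 4 held B alone. As exact exons, a form of A and B were thus held together by 3 of 63 isoforms in heads, 1 of 25 in embryos and 0 of 4 in ovaries. Of those with none of the exact exons, 10 in heads and 8 in embryos retained the intron between B and the long A (2028751 to 2029774) and so hold both sequences. The annotated protein of 917 residues was predicted from 6 head, 7 embryonic and 0 ovarian isoforms. The form with A was predicted from 17, 3 and 0, and the form with B from 8, 4 and 4.

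Exon counts were taken by promoter. Of the 20 head isoforms from TSS 1, 11 held B alone and 5 held a form of A alone. Of the 43 from TSS 2, 5 held B alone and 25 held a form of A alone. In embryos the 1 isoform from TSS 1 held B, while of the 24 from TSS 2, 3 held B alone and 12 a form of A alone. In ovaries B was held by the 3 isoforms from TSS 1 and also by the 1 isoform from TSS 2. These are counts of isoforms within pooled assemblies, and the difference was not tested.

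**Figure D3:**
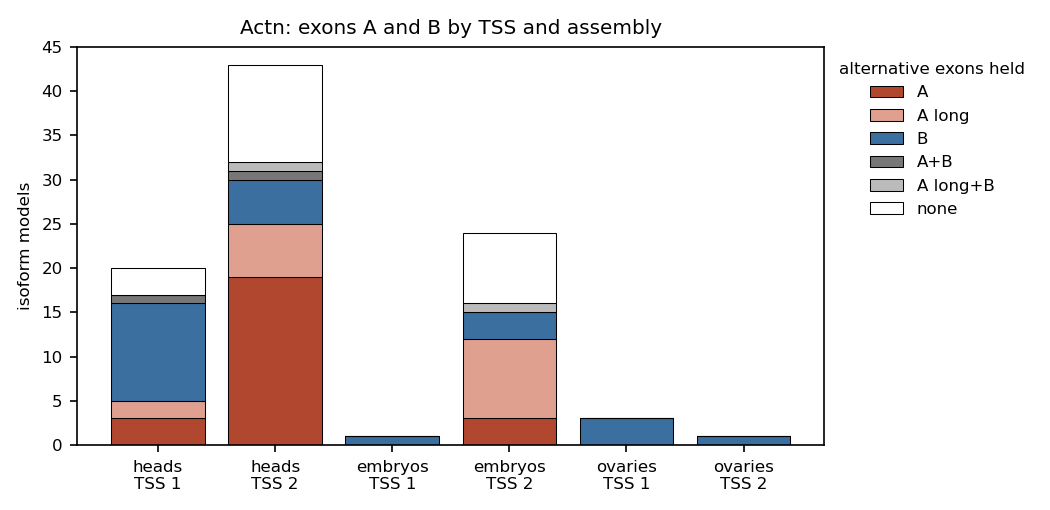
Number of Actn isoform models that hold exon A, the long form of A, exon B, 2 of these or none, by TSS (x axis) and assembly. In heads B leads from TSS 1 (11 of 20) and A from TSS 2 (19 of 43). In embryos the long A leads from TSS 2 (9 of 24), and all 4 ovarian models hold B.

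The leader of Actn also varied. The exon with the start codon was 247, 244 or 241 nt long, through 3 acceptors spaced 3 nt apart upstream of the start codon. They were used by 31, 12 and 5 head isoforms, by 12, 6 and 1 embryonic and by 2, 1 and 1 ovarian ones. A 457-nt form of this exon was held by 8 head, 3 embryonic and 0 ovarian isoforms. At the 3′ side PAS 4 was the most frequent in all tissues, with 31 head, 14 embryonic and 4 ovarian isoforms. Its single end (2025117) had AATAAA 15 nt upstream but was also followed by 14 A in 20 nt of the genome. Priming within the transcript at this end was not tested. PAS 5 held 24 in heads, 4 in embryos and 0 in ovaries. In heads TSS 1 isoforms ended at PAS 4 in 14 cases and PAS 5 in 6, and TSS 2 isoforms at PAS 4 in 17, PAS 5 in 18 and at the more proximal PAS 3 in 6. The far PAS 6, 7 and 8 held 1 isoform in heads and 6 in embryos, and the most distal end of Actn lay further downstream in embryos than in heads (heads minus embryos, -632 nt).
Actn PAS 4, chrX:2025118-2025147: aatttatgttAATAAAaacaaaatccatac
Actn PAS 5, chrX:2024757-2024785: acgaaagatgAATAAAgcgattttttgtg
Actn PAS 6, chrX:2024286-2024315: ttatgaaatcAATAAAtaatcattccactg

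Zasp66 lies on the plus strand of 3L (8624371 to 8638813) and encodes a PDZ-domain protein of the Z-disc. It had 57 head, 9 embryonic and 2 ovarian isoforms, and its annotated proteins begin at a different start codon for each promoter. TSS 1 started 6 head, 1 embryonic and 0 ovarian isoforms, and TSS 2, 1838 nt downstream, started 20, 1 and 1. TSS 3, 5872 nt downstream of TSS 1, started 31, 7 and 1, and its isoforms lack the 5′ coding exons. A 119-nt exon with a start codon (8630517 to 8630635) was kept by 23 and skipped by 3 of the scored head isoforms from TSS 3, and skipped by all 23 scored from TSS 1 and TSS 2. The MEF2 consensus overlapped TSS 2, beginning 7 nt upstream of the start.
Zasp66 TSS 2, chr3L:8626193-8626222: gaattgtattTTAAAATTAGtacttgagca

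Small coding exons towards the 3′ end of Zasp66 were the other choice. A 72-nt exon (chr3L:8635681-8635752) was kept by 18 isoforms in heads and skipped by 20, and was skipped by both scored isoforms in embryos and both in ovaries. A 160-nt exon (8637439 to 8637598), whose skipping changes the frame and the C terminus, was kept by 23 and skipped by 15 in heads, kept by 1 and skipped by 1 in embryos, and skipped by both in ovaries. Of the head isoforms in which both were scored, 10 kept both, 7 the 72-nt exon alone, 11 the 160-nt exon alone and 8 neither. The 39-nt exon that follows was kept by 40 and skipped by 5 in heads, and kept by all 4 scored isoforms in embryos and both in ovaries. All 11 annotated proteins, of 135 to 430 residues, were predicted from isoforms in heads, 2 of them in embryos (215 and 135 residues) and 2 in ovaries (298 and 135 residues). PAS 4 ended 54 of 57 isoforms in heads, 8 of 9 in embryos and both in ovaries.
Zasp66 72-nt exon: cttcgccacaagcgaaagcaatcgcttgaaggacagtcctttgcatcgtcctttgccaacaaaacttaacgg
Zasp66 PAS 4, chr3L:8638783-8638812: tgttttaattAATAAAagtgactttgattg

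Introns of Zasp66 were retained by 24 of 57 isoforms in heads, 6 of 9 in embryos and 0 of 2 in ovaries. The 558-nt intron between the 160-nt and the 39-nt exon was spliced by 29 and retained by 9 head isoforms, and spliced by 3 and retained by 4 embryonic ones. An isoform that retains this intron is scored neither as keeping nor as skipping the exons beside it.

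**Figure D4:**
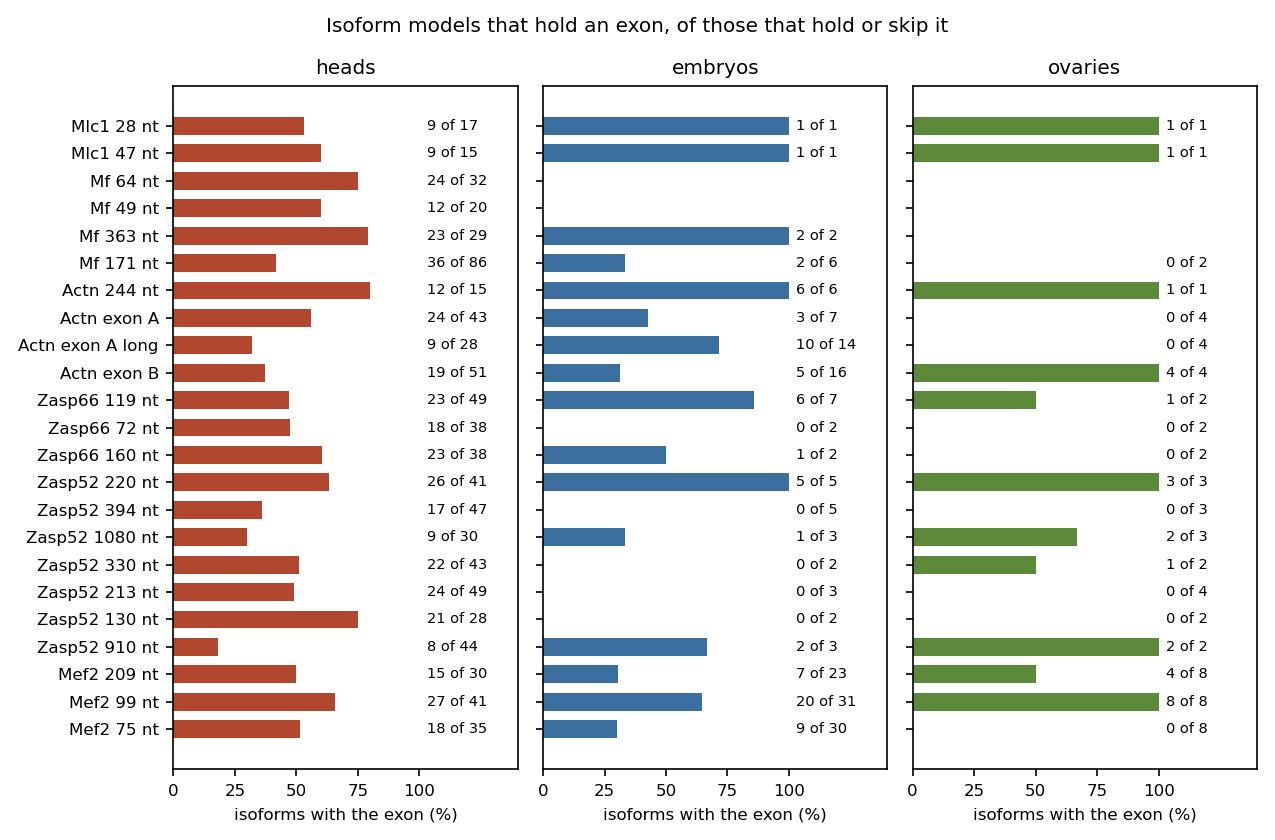
Share of isoform models (x axis, %) that hold each of 23 annotated exons, of the models that hold or skip it, in heads, embryos and ovaries, with the counts at the right. The exons are those with 15 or more scored head models of which 15 to 85% hold the exon. Of the 17 scored by 2 or more ovarian models, 13 are all kept or all skipped there. As the exons were chosen for variation in heads and few ovarian models were scored, this count does not compare the tissues. Forms of an exon with different edges are counted separately.

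Zasp52, the larger PDZ and LIM protein, spans 15762565 to 15817004 on the minus strand of 2R. It had 59 head, 6 embryonic and 4 ovarian isoforms, and 1 intron chain occurred in all 3 tissues. TSS 1 started 14 head, 5 embryonic and 2 ovarian isoforms. TSS 2, 2087 nt downstream, started 35 head, 1 embryonic and 1 ovarian isoform. The internal TSS 3, 40942 nt downstream, started 10, 0 and 1, and its annotated proteins begin at another start codon and lack the PDZ part. Heads thus led with TSS 2 and embryos with TSS 1. The main 3′ end, PAS 14, held 39 head, 2 embryonic and 2 ovarian isoforms, and in heads it ended 9 of 14 isoforms from TSS 1, 21 of 35 from TSS 2 and 9 of 10 from TSS 3.

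A pair of neighbouring coding exons of Zasp52 did not occur together as exact exons. Among head isoforms in which both were scored, 26 held the 220-nt exon (15780058 to 15780277) without the 394-nt exon (15779265 to 15779658), 15 held the 394-nt exon without the other, 0 held both and 0 neither. The 399-nt stretch between them (15779659 to 15780057) was spliced out as an intron by 2 other head isoforms, which join the 394-nt exon to a longer form of the 220-nt exon, and was retained by 1. All 5 scored embryonic and all 3 scored ovarian isoforms held the 220-nt exon. The 394-nt exon was kept by 17 head isoforms and skipped by 30 in all. In heads it was kept by 14 and skipped by 19 from TSS 2, and kept by 3 and skipped by 11 from TSS 1.

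A 213-nt coding exon (15773041 to 15773253) was kept by 24 and skipped by 25 head isoforms, and skipped by all 3 scored in embryos and all 4 in ovaries. Further downstream a 910-nt exon (15763926 to 15764835) was kept by 8 and skipped by 36 in heads, kept by 2 and skipped by 1 in embryos, and kept by both scored in ovaries. No head isoform held both of these exons, where 24 held the 213-nt exon alone, 8 the 910-nt exon alone and 11 neither. From TSS 1 the 910-nt exon was kept by 5 of 10 scored head isoforms, from TSS 2 by 3 of 25 and from TSS 3 by 0 of 9. The exon upstream, which carries the internal start codon, was 330 nt long in 22 head isoforms and 1080 nt in 9, and 21 skipped it. The long form was in 1 embryonic and 2 ovarian isoforms, and the short form in 0 and 1. The exon was skipped by 2 embryonic and 1 ovarian isoform. The longest predicted product had 2289 residues in heads and 1271 in embryos and in ovaries. Of 21 annotated proteins 14 were predicted from head isoforms, 2 from embryonic and 2 from ovarian ones. The one of 1271 residues was found in all 3, and the one of 716 residues in embryos alone, from 1 isoform.

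Mef2, the MADS-box factor of muscle and of some neurons, lies on the minus strand of 2R (9913496 to 9958858). It had 50 head, 33 embryonic and 8 ovarian isoforms. TSS 1 started 30, 21 and 8 of these. TSS 2, 14094 nt downstream, started 1, 3 and 0, and TSS 3, 29243 nt downstream, started 19, 9 and 0. All 3 promoters lead to the same start codon. In the leader of TSS 1 and TSS 2 transcripts a 209-nt exon (9940745 to 9940953) was kept by 15 and skipped by 15 in heads, kept by 7 and skipped by 16 in embryos, and kept by 4 and skipped by 4 in ovaries. A 59-nt leader exon was kept by 24 and skipped by 4 in heads, kept by 21 and skipped by 2 in embryos, and kept by 6 and skipped by 2 in ovaries.

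In the coding part of Mef2 a 75-nt exon (9917457 to 9917531) was kept by 18 and skipped by 17 in heads, kept by 9 and skipped by 21 in embryos, and kept by 0 and skipped by 8 in ovaries. A 99-nt exon (9918964 to 9919062) was kept by 27 and skipped by 14 in heads, kept by 20 and skipped by 11 in embryos, and kept by 8 and skipped by 0 in ovaries. The exon before it ended at 2 donors 18 nt apart. Its 301-nt form was in 31 head, 14 embryonic and 3 ovarian isoforms, and its 319-nt form in 13, 16 and 5. The last coding exon began at 1 of 2 acceptors, reached from the exon upstream of the 75-nt exon by an intron of 1046 nt in 12 head and 14 embryonic isoforms and of 1025 nt in 5 and 7. From the donor of the 75-nt exon, the first acceptor was reached by 21 head and 9 embryonic isoforms (intron of 565 nt). The second was reached from there by 1 head isoform (544 nt). With these choices there were 9 annotated proteins of 476 to 540 residues, all 9 found in heads and in embryos and 4 in ovaries. The 4 ovarian forms, of 509 to 522 residues, all kept the 99-nt exon and skipped the 75-nt exon.

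Mef2 ended mainly at PAS 6, with 28 head, 27 embryonic and 8 ovarian isoforms. PAS 9 lies 2014 nt further downstream and held 15 head, 5 embryonic and 0 ovarian isoforms. The 3′ UTR after an annotated protein ranged between 1243 and 3257 nt in heads and in embryos and was 1243 nt in ovaries. PAS 9 ended 8 of 30 head isoforms from TSS 1 and 7 of 19 from TSS 3. In embryos it ended 1 of 21 from TSS 1 and 4 of 9 from TSS 3. By 3′ end, the 75-nt exon in heads was kept by 9 and skipped by 2 of the scored isoforms at PAS 9, and kept by 8 and skipped by 15 at PAS 6. In embryos it was kept by 3 and skipped by 2 at PAS 9, and kept by 6 and skipped by 19 at PAS 6.

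**Figure D5:**
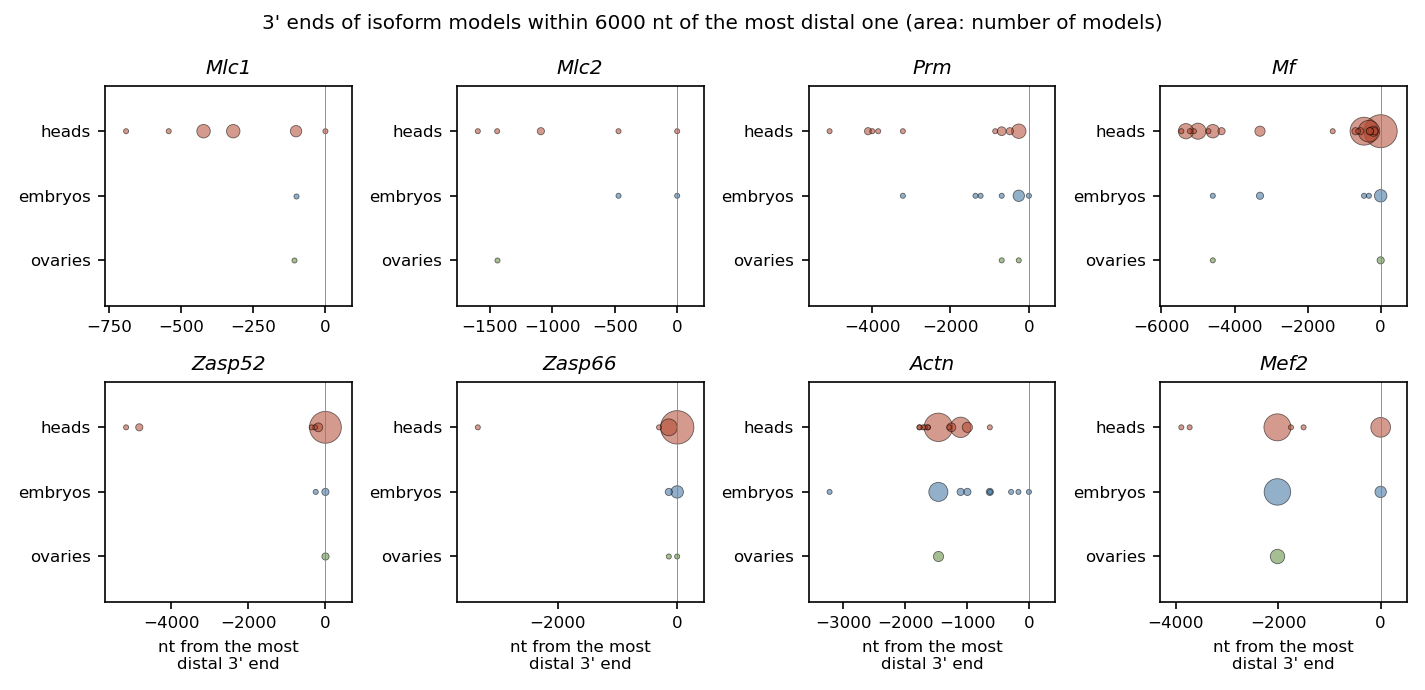
Position of each 3′ end within 6000 nt of the most distal end of its gene (x axis, nt), by assembly, with the area of a point proportional to its number of isoform models. In Mef2 the end at 2014 nt upstream holds most models in every tissue and the distal end has none in ovaries. In Actn the embryonic ends reach furthest.

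Short words around the 18 TSSs were compared with those around 14120 TSSs of all genes. TCAGT, an initiator-like word searched on the transcribed strand, had its A within 10 nt of the first transcribed base at 4 of the 18 (Prm TSS 3, Zasp66 TSS 3, Actn TSS 2 and Mef2 TSS 3), against 15.9% of all. The A was that first base at Prm TSS 3, against 2.79% of all. TATAAA in the 40 nt before the start, on the same strand, occurred at 1 of the 18 (Zasp52 TSS 3) and at 6.57% of all. The MEF2 consensus, which reads alike on both strands, was searched in the window from 250 nt before to 50 nt after the start and matched at 2 of the 18 (Mf TSS 2 and Zasp66 TSS 2) and at 13.5% of all. A match is a description and does not show binding.

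The most distal 3′ end of each gene was compared between tissues. It lay over 150 nt further downstream in heads than in embryos in 0 of the 8, against 22.3% of all genes compared. The difference, heads minus embryos, was 0 nt for Mlc2, Mf, Zasp52, Zasp66 and Mef2, 102 nt for Mlc1, -259 nt for Prm and -632 nt for Actn. Against ovaries, heads reached over 150 nt further in Mlc2 (1442 nt), Actn (832 nt) and Mef2 (2014 nt), which is 3 of 8 genes, where 27.0% of all genes did.

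At least 1 intron was spliced in some isoforms and retained in others in all 8 genes in heads and in 6 of the 7 with several isoforms in embryos, against 82.3% of genes with several isoforms in heads and 76.4% in embryos. In ovaries it was 0 of the 6 with several isoforms, against 48.6% of such genes. In all, 151 of 420 head isoforms, 35 of 101 embryonic isoforms and 0 of 25 ovarian isoforms retained such an intron, where the share of all isoforms was 46.2%, 27.5% and 13.7%. An intron counts only if another isoform of the gene in the same assembly splices it. The count thus depends on the isoforms per gene, and the single ovarian isoforms of Mlc1 and Mlc2 could not count. A predicted stop codon more than 50 nt before the last exon junction was found in 157 of 395 head isoforms with a complete frame (39.7%), 30 of 98 in embryos (30.6%) and 1 of 23 in ovaries (4.35%). Over all genes it was 37.0% in heads, 20.0% in embryos and 10.5% in ovaries.

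At the level of proteins, 53 of the 63 annotated products of the 8 genes were predicted from at least 1 isoform. Heads held 51 of them, embryos 26 and ovaries 15. In heads alone 25 were found, most of them from Zasp52 (12) and Zasp66 (8), 2 in embryos but not in heads, and 12 in all 3 tissues. Of the annotated products predicted for all genes, 30.8% were found in heads alone and 30.3% in all 3. Counted with frames that are not annotated, there were 168 different products in heads, 51 in embryos and 16 in ovaries. Of 344 intron chains, 58 occurred in heads and embryos, 17 in heads and ovaries, 14 in embryos and ovaries and 12 in all 3. Heads alone held 241, embryos alone 32 and ovaries alone 6. Over all genes 62.9% of chains were in heads alone and 9.14% in all 3.

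The other genes of the sarcomere gave a frame for these counts. Of 30 further genes, chosen for their role, 29 could be matched (Unc-89 was not analysed here). Of the 29, all had an isoform in heads, 23 in embryos and 20 in ovaries, with medians of 7, 3 and 1. Myosin heavy chain (Mhc) led with 255 head, 118 embryonic and 2 ovarian isoforms, followed by tropomodulin (tmod) with 141, 13 and 1 and troponin T (up) with 126, 21 and 2. Isoforms were more numerous in heads than in embryos for 26 of the 29 and fewer for 2. These, named after their values were seen, were the giant titin-related genes, sls with 4 in heads and 9 in embryos, and bt with 59 in heads and 65 in embryos. No embryonic isoform was found for 6 of the genes. Of the non-muscle myosin genes, the regulatory light chain sqh had 1 isoform in each assembly, Mlc-c had 1 in heads alone, and zip was listed with none. Whether zip carries another gene ID in these files was not tested.

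Of 13 myogenic regulators and splicing factors of muscle, 11 had an isoform in heads, 10 in embryos and 5 in ovaries. Heads had more isoforms than embryos for 7 of the 13 and fewer for 3, and embryos more than ovaries for 9 and fewer for 1. Rbfox1, an RNA-binding splicing regulator, had the most isoforms in heads, with 98, against 32 in embryos and 4 in ovaries. Scalloped (sd) had 46, 16 and 4, and muscleblind (mbl) 38, 9 and 2. Him and tin were listed with no isoform in any assembly.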

How the data were processed

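The authors sequenced Nanopore cDNA libraries from heads, embryos and ovaries and deposited 1 isoform assembly for each tissue, with replicates pooled. Per the file headers and columns these hold exon start and end positions (dm6, a build named in the submitters' processing notes) in nucleotides, with no read counts and no depth. By the study's account heads were sequenced more deeply than the other tissues. The study's methods describe an assembly step that kept a read only if a promoter database supported its 5′ end. The sources used here do not state whether the study's 3′ end filter was applied to these files. Isoforms were taken by gene ID, and no isoform of another ID was added. 5′ ends up to 50 nt apart formed a TSS and 3′ ends up to 150 nt apart a PAS, over the 3 assemblies together. An exon was scored as kept or skipped, and an intron as retained, from identical splice sites. Frames were read from the most upstream annotated start codon (Ensembl release 115, genome sequence from RefSeq, same assembly). Exons, introns and ends were named where 3 or more isoforms lay on each side in an assembly, where 3 or more isoforms of 1 assembly alone held them, or where they separate annotated proteins. A few rarer ends and introns were named after their values were seen. Of each gene list the 3 genes with the most head isoforms and those with none were named. Listed genes were matched by their IDs in Ensembl release 115, and the study used an earlier release. A gene whose ID changed in between would be listed with no isoform. AATAAA was searched in the last 50 nt, and an end was called A-rich with 12 or more A in the next 20 nt. Analyses ran in Python 3.11.15 (figures in matplotlib 3.10.9) and were tested on simulated isoforms with known answers. No tests were made, since each tissue is 1 pooled assembly. Other gaps, splice-site tolerances, isoform minimums and reading frames were tried as alternatives. The members and gene lists were chosen with earlier results of these data known.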

Additional observations from a re-analysis of the deposited data

How the results depend on the processing

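No paired analysis was possible because each tissue is 1 assembly with replicates pooled, and no replicate could be left out for the same reason. Of 69 combinations of a count and another setting, 64 stayed within 1.5 times the value given and 5 did not. With 3′ ends joined over gaps of 300 nt the PASs of the 8 genes in heads were 32 in place of 49. When 2 isoforms were required on each side, alternative internal exons were 8 in place of 16 in embryos and 2 in place of 5 in ovaries, and retained introns in embryos were 24 in place of 46. With a window of 75 nt, 1 gene (Mlc1) in place of 0 had a more distal 3′ end in heads than in embryos. The settings that moved no count past 1.5 times were narrower and wider TSS gaps, grouping within each assembly, merging of near-identical isoforms, leaving out A-rich 3′ ends, splice sites matched within 10 nt and the longest reading frame. Isoform numbers carry no read support, so a rare isoform weighs as much as an abundant one, and what was not seen in ovaries or embryos may be below detection there.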
